A study of Homo sapiens with 18 samples.

Results

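The HOXA cluster on human chromosome 7 was described here through 9 of its genes, HOXA2, HOXA3, HOXA5, HOXA6, HOXA7, HOXA9, HOXA10, HOXA11 and HOXA13. All listed intervals that overlap chr7:27082993-27210091 (hg38), the cluster with 10 kb on either side, were taken. They numbered 15 of 74559 intervals for H3K27ac, 21 of 33437 for H3K27me3, 23 of 108165 for H3K4me1 and 19 of 59230 for H3K4me3, and each of them could be tested. An interval was assigned to a gene when it lay within 2 kb of a start site of that gene in GENCODE release 44, so that long intervals belong to several genes.

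The data are Cut&Tag libraries, in which an antibody directs the Tn5 transposase to cut and tag the DNA around a histone modification. The human cell line MOLM-13, derived from a KMT2A-rearranged acute myeloid leukemia, received either 100 nM PR-957 (ONX-0914), which inhibits the immunoproteasome subunit PSMB8, or the diluent DMSO. The sample labels state 72 h of treatment, whereas a legend of the study gives a shorter time for these libraries. Both arms come from the same cell line, each modification has 2 libraries per arm, 16 in all, and the comparison asks how PSMB8 inhibition changes the chromatin of this locus.

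HOXA genes encode homeodomain transcription factors that lie in the order in which they act along the body axis, from HOXA2 at the anterior end to HOXA13 at the posterior end. H3K4me3 marks active promoters, H3K4me1 marks enhancers and promoter flanks, H3K27ac marks active regulatory DNA, and H3K27me3 is the mark of Polycomb repression. In leukemias with a KMT2A fusion, the fusion protein is known to keep the central HOXA genes active, HOXA9 above all, and HOXA9 acts with the homeodomain protein MEIS1 to sustain self-renewal.

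The promoters of 4 members show the ends and the centre of the locus that the values below turn on. For each gene the 250 bases before the annotated main start are given 5′ to 3′ on the minus strand, from RefSeq sequence of GRCh38.p14. They are chr7:27102684-27102933 for HOXA2, chr7:27165538-27165787 for HOXA9, chr7:27174321-27174570 for HOXA10 and chr7:27200092-27200341 for HOXA13. Capitals mark matches on either strand to TGATTNAT (HOX with PBX), TTTATNGC (posterior HOX), GGGCGG (GC box), CCAAT or TATAAA.
HOXA2: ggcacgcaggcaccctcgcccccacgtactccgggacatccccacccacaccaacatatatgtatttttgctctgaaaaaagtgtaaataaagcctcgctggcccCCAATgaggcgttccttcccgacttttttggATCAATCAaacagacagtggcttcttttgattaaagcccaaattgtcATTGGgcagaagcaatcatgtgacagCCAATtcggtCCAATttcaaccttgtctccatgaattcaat
HOXA9: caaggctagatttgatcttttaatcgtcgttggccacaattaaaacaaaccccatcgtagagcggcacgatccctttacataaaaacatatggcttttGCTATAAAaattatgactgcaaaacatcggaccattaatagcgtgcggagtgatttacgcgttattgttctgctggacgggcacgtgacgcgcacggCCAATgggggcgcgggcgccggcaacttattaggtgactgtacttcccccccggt
HOXA10: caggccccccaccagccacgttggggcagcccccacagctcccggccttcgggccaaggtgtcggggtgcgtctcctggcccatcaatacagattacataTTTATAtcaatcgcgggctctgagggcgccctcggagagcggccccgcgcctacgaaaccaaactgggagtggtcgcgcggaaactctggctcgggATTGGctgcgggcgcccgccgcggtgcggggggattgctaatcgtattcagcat
HOXA13: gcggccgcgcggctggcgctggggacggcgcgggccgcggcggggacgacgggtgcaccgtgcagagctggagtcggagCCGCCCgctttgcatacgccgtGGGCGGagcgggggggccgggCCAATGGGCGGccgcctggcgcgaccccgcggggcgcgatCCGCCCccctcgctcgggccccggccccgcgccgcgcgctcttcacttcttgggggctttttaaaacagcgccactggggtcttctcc
The HOXA2 promoter held 1 match to TGATTNAT, which 2.48% of 35116 promoters of the same length hold, and 4 to CCAAT, which 32.0% hold. The HOXA9 promoter held 1 match to TTTATNGC (2.22% of promoters) that shares bases with its TATAAA match (10.7%). HOXA10 held a TATAAA and a CCAAT match, and HOXA13 held 4 GGGCGG matches (42.6% of promoters) and 1 CCAAT match. GC content was 47.2% for HOXA2, 48.8% for HOXA9, 65.2% for HOXA10 and 78.0% for HOXA13, against a median of 58.0% over all promoters. The number of CpG dinucleotides was 8, 20, 24 and 40 in the same order, with a median of 11. Of the 9 members, 8 were matched in the promoter table. These matches describe the letters and say nothing of binding.

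The libraries held 9885836 to 14165777 counts for H3K27ac, 10032503 to 12047958 for H3K27me3, 15204186 to 30584219 for H3K4me1 and 30070119 to 44591150 for H3K4me3. No pair of libraries of a mark had identical counts. Of the myeloid markers, 8 of 10 had an H3K4me3 interval (MPO and FCGR1A had none) and 8 of 10 an H3K27ac interval (CD14 and FCGR1A had none). For H3K27ac, 0 of 5 T cell and 0 of 5 erythroid markers had one, with 3 of 5 B cell and 1 of 5 epithelial markers. For H3K4me3 the numbers were 1, 1, 3 and 3 of 5 for T cell, erythroid, B cell and epithelial markers.

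In DMSO, the stretch from HOXA6 to HOXA13 carried intervals of all 4 marks, whereas HOXA2 carried H3K27me3 alone. Levels are library-scaled counts (CPM, with TMM factors) divided by interval length (CPM per kb). They are ordered within a mark only, over the longest chain of intervals that do not overlap each other, an order chosen after seeing the data. H3K27ac was densest over the main starts of HOXA9, the main KMT2A fusion effector of the cluster, and HOXA10, with 10.9 ± 0.24 CPM per kb (SD, n = 2). It was 7.35 ± 0.41 over the main starts of HOXA3, HOXA6 and HOXA7 and 6.08 ± 0.13 over that of HOXA11. At HOXA13 it was 3.55 ± 0.41 at the 3′ end and 3.02 ± 0.38 over the main start. The ranges of neighbours in this order did not overlap, except those of both HOXA13 intervals.

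H3K4me3 had overlapping ranges at HOXA13 and over the central genes, with 4.50 ± 0.12 CPM per kb (SD, n = 2) over the main starts of HOXA3, HOXA6, HOXA7, HOXA9 and HOXA10 and 4.47 ± 0.30 over that of HOXA13. It was 3.82 ± 0.28 over HOXA11. Intervals with no member within 2 kb held 4.16 ± 0.12 before HOXA2 and 3.03 ± 0.57 between HOXA2 and HOXA5, so that this mark was not confined to the central and posterior genes.

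H3K4me1 was highest over the main HOXA10 start at 1.94 ± 0.01, followed by 1.82 ± 0.01 beside the 3′ end of HOXA13 and 1.57 ± 0.01 in an interval between HOXA2 and HOXA5 that lies near a start of HOXA3. The DMSO libraries held 1.10 and 0.939 over the main HOXA13 start. The level was 0.842 ± 0.04 over that of HOXA7 and 0.667 ± 0.02 over that of HOXA3. H3K27me3 reached 32.6 ± 1.1 over the whole domain that holds HOXA6 to HOXA13. This domain of 119.9 kb runs well past HOXA13, so that the level is not that of the genes alone. It was 4.00 ± 0.39 at HOXA2 and 0.709 ± 0.04 at the small interval beside HOXA3 and HOXA5. The ranges of these H3K27me3 intervals were apart, although an order over 2 libraries carries little certainty.

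HOXA2 and HOXA5 had no H3K27ac, H3K4me1 or H3K4me3 interval within 2 kb. The intervals over the HOXA9 start began 3.72 kb beyond the HOXA5 start for H3K27ac, 2.25 kb beyond it for H3K4me3 and 0.184 kb beyond it for H3K27me3. No H3K4me1 interval covered the main HOXA9 start, and the nearest lay 2834 bp away. The same DNA from HOXA6 to HOXA13 thus appeared in intervals of H3K27me3 and of the active marks. Each library pools many cells, so that both marks on one allele, marks in different cells, and a change in the share of marked cells or in the amount per cell cannot be told apart.

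The repressive mark H3K27me3 fell with PR-957 at HOXA2 and over the long domain that holds the genes from HOXA6 to HOXA13. Of 21 intervals, 8 passed as lower in edgeR and 0 as higher, against 5.09% of all 31806 tested intervals called lower. They form 2 loci, with 4 overlapping intervals at HOXA2 and 4 over the domain, which are 2 of the 8 non-overlapping intervals. The 3 non-overlapping intervals between HOXA2 and the domain had log2 fold changes of 0.12 to 0.45 with overlapping groups, and none of them passed. In 11 of the 21 intervals both PR-957 libraries lay below both DMSO libraries, against 22.5% of all intervals. In 2 they lay above, and the share of all intervals above is not given. The median log2 fold change of the 21 intervals was −0.39, beside 0.02 over all intervals. Library size in place of TMM factors shifts the median of all intervals to 0.18 and that of the locus to −0.23. It turns the calls over all intervals from 1620 lower and 262 higher to 698 lower and 1521 higher, while the 8 calls at the locus are unchanged in number.

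HOXA2, which patterns the hindbrain and its neural crest, carried its own interval at chr7:27100467-27107304. It held 29.2 and 25.5 CPM in the DMSO libraries and 20.0 and 15.8 CPM in the PR-957 libraries. Both PR-957 libraries were below both DMSO libraries. The log2 fold change was −0.61 (SE 0.13, adjusted p = 0.000381 in edgeR), so that the level dropped by 34.7%, from 276 and 289 counts to 216 and 204. Without PR-957 replicate 2 it was −0.45 with an adjusted p of 0.106, and without DMSO replicate 1 it was −0.53 with an adjusted p of 0.0516.

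The domain at chr7:27143865-27263758 spans 119.9 kb and lies within 2 kb of a start site of HOXA3, HOXA5, HOXA6, HOXA7, HOXA9, HOXA10, HOXA11 and HOXA13. It ranked 13th of 31806 intervals by CPM in DMSO and 71st by CPM per kb. The libraries held 3997 and 3813 CPM with DMSO and 3028 and 2750 CPM with PR-957. The arms did not overlap, and the level dropped by 26.0% (log2 fold change −0.43, SE 0.04, adjusted p = 2.24e-16 in edgeR). The call held with each of the 4 libraries left out in turn (−0.52 to −0.38). Its size depended on the scaling, with −0.27 for library size alone (adjusted p = 1.89e-17) and −0.13 with cyclic loess offsets (adjusted p = 1.05e-06).

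The domain could be divided at only 1 place. Subtracting a nested interval of 80.2 kb, chr7:27144291-27224447, leaves the last 39.3 kb. The nested interval holds every main start of a member in the domain, and DNA past HOXA13. Starts of genes other than the members were not placed. The nested interval gave 36.6 and 34.7 CPM per kb in DMSO and 27.9 and 25.2 in PR-957, a log2 ratio of means of −0.43. The remainder gave 26.9 and 26.2 in DMSO and 20.1 and 18.5 in PR-957, a log2 ratio of −0.46. The difference between the stretches was not tested, and the fall at single genes within the domain was not resolved. The small interval at chr7:27140527-27141956 beside HOXA5, a gene of lung and axial development, and a start of HOXA3 held 1.06 and 0.969 CPM in DMSO and 2.04 and 0.774 in PR-957. These groups overlapped at 10 to 22 counts, with a log2 fold change of 0.45 (adjusted p = 0.832 in edgeR).

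The other HOX clusters moved in the same direction for this mark. The domain of HOXB1 to HOXB9 held 4412 and 4340 CPM in DMSO and 3625 and 3290 in PR-957 (log2 fold change −0.34). That of HOXC held 8163 and 7781 against 6667 and 6135 (−0.32), and that of HOXD 5154 and 4950 against 4067 and 3708 (−0.38). The separate HOXB13 domain gave −0.42. All 10 HOXB, 9 HOXC and 9 HOXD genes were called lower, from 2, 1 and 1 intervals. With cyclic loess offsets the HOXB domain was at −0.02 (adjusted p = 0.704), HOXC at 0.04 (0.217), HOXD at −0.05 (0.118) and HOXB13 at −0.16 (1.34e-07). Whether the HOXA domain differs from the others was not tested.

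Strong H3K27me3 loci in general were lower with PR-957. Among the 100 loci with the most DMSO CPM, taking the widest interval of each, 78 were called lower and 1 higher, with a median log2 fold change of −0.32. The HOXA domain was the 9th most negative of them. With cyclic loess offsets, which remove a trend on the level itself, the median was −0.08, 48 were called lower and the HOXA domain was 36th.

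H3K27ac was lower over the central genes, on calls that several settings end, and not detectably changed at the posterior end. In edgeR, 4 of 15 intervals passed as lower and 0 as higher, against 0.173% of all 74510 tested intervals called lower. The 4 overlap each other over HOXA6 to HOXA10. In 5 of the 15 both PR-957 libraries lay below both DMSO libraries, against 18.8% of all intervals. The median over the 15 intervals was −0.02 on the log2 scale, beside 4.52e-06 over all intervals. Among the 100 H3K27ac loci with the most DMSO CPM, taking the widest interval of each, 14 were called lower and 0 higher. Their median log2 fold change was −0.07, and the longest HOXA interval was the 16th most negative. With cyclic loess offsets the median was −0.04, 10 were called lower and the HOXA interval was 17th.

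The longest of the called intervals, chr7:27147867-27178141, represents HOXA3, HOXA6, HOXA7, HOXA9 and HOXA10. HOXA6 and HOXA7 pattern the trunk, and HOXA10 acts in blood progenitors and the reproductive tract. It ranked 27th of 74510 intervals by DMSO CPM and held 268 and 273 CPM in DMSO and 242 and 235 in PR-957. The groups did not overlap, and the log2 fold change was −0.18 (SE 0.04, adjusted p = 0.00827 in edgeR). The call was lost with cyclic loess offsets (−0.14, adjusted p = 0.187). Leaving out DMSO replicate 2 (−0.17, 0.0760) or PR-957 replicate 2 (−0.16, 0.468) also ended it.

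Shorter intervals resolve this stretch. At chr7:27163094-27177532, which holds the HOXA9 and HOXA10 starts, H3K27ac was 159 and 155 CPM in DMSO and 138 and 134 in PR-957. The level dropped by 13.3% without overlap between the groups (log2 fold change −0.21, SE 0.05, adjusted p = 0.0343 in edgeR). DESeq2 gave an adjusted p of 0.0563, library size alone 0.0575 and cyclic loess 0.180, and leaving out any 1 of the 4 libraries gave 0.0700 to 0.530. At chr7:27147351-27162831, with the main starts of HOXA3, HOXA6 and HOXA7, the values were 109 and 118 CPM against 104 and 101 (−0.15, adjusted p = 0.429), also without overlap.

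Toward the posterior end the groups overlapped. At HOXA11, which patterns limb and kidney, and the upstream HOXA10 start, chr7:27178509-27190034 held 71.1 and 69.0 CPM in DMSO and 69.6 and 65.9 in PR-957 (log2 fold change −0.05). The interval over the main start of HOXA13, a gene of distal limb and urogenital patterning, chr7:27198243-27202525, held 14.1 and 11.8 CPM in DMSO and 15.2 and 13.02 in PR-957 (0.11, adjusted p = 0.942). A further interval at the HOXA13 3′ end, chr7:27191214-27194094, gave 11.1 and 9.38 against 10.5 and 11.5 (0.10). At these counts, between 93 and 186 per library, a change of the size seen over HOXA9 and HOXA10 was not detectable.

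H3K4me1 was lower between HOXA11 and HOXA13, on a call that several settings end. Of 23 intervals, 2 passed as lower in edgeR and 0 as higher, against 0.701% of all 108158 tested intervals called lower. DESeq2 called 0 of the 23, and only 26 of all 108158. In edgeR 6 of the 23, some of them overlapping, had an unadjusted p under 0.05, and the share of all intervals is not given. Over all intervals 758 were lower and 1341 higher, and with library size alone 465 and 1902. Both PR-957 libraries were below both DMSO libraries in 11 of the 23, against 23.2% of all intervals. The median log2 fold change was −0.25, beside −0.00113 over all intervals.

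The interval chr7:27187390-27194069, which reaches the 3′ end of HOXA13 and represents that gene, held 12.2 and 12.1 CPM in DMSO and 7.96 and 9.31 in PR-957. The groups were apart, with a log2 fold change of −0.48 (SE 0.14, adjusted p = 0.0423 in edgeR). It missed the threshold with library size alone (0.0776), cyclic loess (0.0762) and DESeq2 (0.565). Leaving out either DMSO library gave 0.243 (replicate 1) and 0.162 (replicate 2), and leaving out PR-957 replicate 1 gave 0.317. The second call, chr7:27187965-27193897, lies inside it (adjusted p = 0.0431).

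At HOXA9, HOXA10 and HOXA11, chr7:27173035-27183545 held 15.3 and 13.7 CPM of H3K4me1 in DMSO and 11.1 and 11.8 in PR-957, without overlap (−0.34, adjusted p = 0.150). The interval over the main HOXA7 start, chr7:27156045-27161869, held 4.74 and 5.06 against 4.49 and 4.04 (−0.20, adjusted p = 0.669). Groups overlapped at HOXA3, where chr7:27133703-27139706 held 9.49 and 9.41 CPM in DMSO and 8.60 and 10.3 in PR-957 (0.02), and at the main start of HOXA13, with 4.95 and 4.22 against 3.85 and 4.26 (−0.17). HOXA6 is represented by chr7:27152103-27154631, at 1.66 and 1.71 against 2.57 and 1.57 (0.26).

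For H3K4me3, 0 of 19 intervals passed in edgeR, against 0.226% of all 59229 tested intervals called in either direction. DESeq2 also called 0, and only 34 of all 59229. In edgeR 5 overlapping intervals had an unadjusted p under 0.05, and the share of all intervals is not given. Both PR-957 libraries lay below both DMSO libraries in 4 intervals that overlap each other, against 18.4% of all intervals. They lay above them in 4 intervals that overlap each other at HOXA13, and the share of all intervals above is not given. The median log2 fold change was −0.00758, and over all intervals it was −0.00103.

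The interval that represents 7 of the members, chr7:27145930-27196839, ranked 9th of 59229 by DMSO CPM. It held 205 and 193 CPM in DMSO and 171 and 184 in PR-957, without overlap (log2 fold change −0.17). Over HOXA3 to HOXA10, chr7:27146742-27177417 held 141 and 135 CPM against 121 and 125 (−0.17, SE 0.07, adjusted p = 0.433 in edgeR). At the main start of HOXA13, chr7:27197368-27202678 held 22.6 and 24.9 CPM in DMSO and 25.8 and 25.2 in PR-957. There both PR-957 libraries were above both DMSO libraries (0.10, SE 0.08, adjusted p = 0.847).

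By gene, taking the interval with the highest mean count, 15 of 30 gene and mark pairs were called lower. They comprise 9 of 9 genes for H3K27me3 from 2 intervals, 5 of 7 for H3K27ac from 1 interval, 1 of 7 for H3K4me1 and 0 of 7 for H3K4me3. By the same rule 9.99% of 3874 protein-coding genes were lower for H3K27me3, 0.381% of 12085 for H3K27ac, 1.45% of 8701 for H3K4me1 and 0.0391% of 12790 for H3K4me3, while 1.83%, 0.0993%, 0.701% and 0.18% were higher. With the shortest interval in place of the highest, 8 pairs were called, 7 for H3K27me3 and 1 for H3K27ac, given to HOXA9, whose interval also holds the main HOXA10 start. Since genes share intervals, these counts are not independent. In the chain of 29 non-overlapping intervals 19 had a negative log2 fold change, 8 had both PR-957 libraries below DMSO and 1 above. No share over all intervals is given for such a chain.

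The log2 ratio of HOXA13 over HOXA3 within each library was compared between the groups, with the interval of highest count for each gene. These intervals are not the ends of the locus. For H3K27ac the HOXA3 interval is the central stretch up to HOXA10, and the HOXA13 interval, which overlaps its last bases, stops before the main HOXA13 start. The ratio was −1.68 and −1.76 in DMSO and −1.56 and −1.55 in PR-957, a difference of 0.16. For H3K4me1 it was 0.36 and 0.37 in DMSO and −0.11 and −0.15 in PR-957, a difference of −0.50. The groups did not overlap in either mark, and both marks had p = 0.333 in an exact permutation test (two-sided), the lowest value possible with 2 libraries per group. When the shortest interval stood for each gene, the groups overlapped in both marks, with p = 0.667 in the same exact test. There H3K27ac gave −3.31 and −3.66 in DMSO and −3.32 and −3.14 in PR-957, and H3K4me1 gave 1.17 and 0.95 against 0.00 and 1.08. For H3K27me3 and H3K4me3 the same interval has the highest count at both genes, so that only the shortest intervals could be compared. H3K27me3 gave 11.44 and 11.49 in DMSO and 10.1 and 11.35 in PR-957 (p = 0.333 in the same exact test). Its HOXA3 interval held 10 to 22 counts per library. H3K4me3 gave −7.37 and −7.03 against −7.09 and −6.98, with overlap (p = 0.667 in the same exact test).

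Pairs chosen after the values were seen also gave p = 0.333 in the exact permutation test, the lowest value possible. Because of that choice this p carries no weight, and the values are only described. For H3K27me3 the ratio of the domain over HOXA2 was 7.10 and 7.23 in DMSO and 7.24 and 7.45 in PR-957. The ratio of the HOXA13 start over the HOXA9 start was −3.50 and −3.71 in DMSO and −3.19 and −3.36 in PR-957 for H3K27ac. For H3K4me3 it was −2.64 and −2.45 against −2.23 and −2.31.

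Genes that work with or on the HOXA genes were counted by the same rule. They are read beside the shares of all protein-coding genes called lower given above. The 100 strongest H3K27me3 loci, 78 of them lower, held at least 501 DMSO CPM. MEIS2, PKNOX2 and PCGF1 lay below that level, so those loci are an unlike reference for them. For H3K27ac the 100 strongest loci, 14 of them lower, held 118 to 565 DMSO CPM, a range that includes MEIS1. Of the HOX partner genes, 1 of 5 with an interval was called lower for H3K27ac, 2 of 4 for H3K27me3, 0 of 3 for H3K4me1 and 0 of 7 for H3K4me3, where DESeq2 also called 0 and 1 gene per mark had an unadjusted p under 0.05 in edgeR. The H3K27ac call was MEIS1, the cofactor of HOXA9, with 248 and 249 CPM in DMSO and 202 and 209 in PR-957 (log2 fold change −0.28, adjusted p = 4.08e-07 in edgeR). The H3K27me3 calls were MEIS2 (162 and 161 against 108 and 116 CPM, −0.53) and PKNOX2 (249 and 239 against 192 and 209 CPM, −0.28), both TALE homeodomain genes.

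The genes of the KMT2A complex and its elongation partners had 0 calls in edgeR, 0 in DESeq2 and 0 at an unadjusted p under 0.05. Of these genes 11, 0, 7 and 13 had an H3K27ac, H3K27me3, H3K4me1 and H3K4me3 interval. Polycomb and H3K27 demethylase genes had 0 of 13 called for H3K27ac, 1 of 5 for H3K27me3, 1 of 9 for H3K4me1 and 0 of 14 for H3K4me3. PCGF1, a subunit of a variant Polycomb complex, was lower for H3K27me3 (85.0 and 84.9 CPM in DMSO, 70.3 and 69.5 in PR-957, −0.28). KDM6B, which removes H3K27 methylation, was lower for H3K4me1 (18.7 and 22.2 against 15.9 and 13.6 CPM, −0.48), which DESeq2 did not call. None of the genes in these lists was called higher.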

How the data were processed

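Cut&Tag libraries of MOLM-13 cells for 4 histone marks were analysed, without the 2 IgG samples. The deposited values are raw counts per interval made by the authors, not normalized, on an interval list shared by the 4 libraries of a mark. Reads were aligned to hg38 with Bowtie2, and the submitters' processing notes name Trimmomatic 0.39, Bowtie2 2.2.5, Picard 2.27.1, SAMtools 1.7, SEACR 1.3 and deepTools 3.5.1. None of the sources used here names the counter or says whether reads or fragments were counted. Listed intervals overlap and share fragments, so nested calls are not independent.

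Intervals were kept by filterByExpr (minimum count 10), scaled by TMM, and tested with the quasi-likelihood test of edgeR 4.0.16 (R 4.3.3) on all intervals of a mark, with Benjamini-Hochberg adjustment at 0.05. The SE is the log2 fold change divided by the square root of F. DESeq2 1.42.0 and limma 3.58.1 (loess offsets) served as alternatives. Among the tested intervals within 2 kb of a gene's start sites (GENCODE 44), that with the highest mean count stood for the gene. Named were the 9 members, the intervals past the threshold, the interval with the smallest p per mark, and called genes of the other lists. The members, lists and rules were chosen with earlier results of these data known. Non-overlapping intervals are the chain that holds most intervals. The alternatives were other scalings, filters, windows, intervals and a replicate block, and leaving out each library. The fits were tested on simulated counts. The labels do not say that libraries came from separate cultures, so p-values measure the spread between these libraries, which may be technical, and PCR copies cannot be told from separate molecules. CPM is counts per effective library size, and coordinates are those of the files.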

Additional observations from a re-analysis of the deposited data

How the results depend on the processing

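Under every alternative run, including each library left out, the H3K27me3 domain remained lower (log2 fold change −0.52 to −0.13, adjusted p 3.61e-25 to 5.05e-06) and H3K4me3 had 0 calls. Of 788 recomputed values 694 kept their direction and their side of the threshold or their size. A further 48 lost their call, 27 moved and 19 values of genes or intervals changed sign, and the cause was not tested. Medians were judged by size alone, so that a change of sign in them is not among the 19. The H3K27ac median was −0.019 in the main fit and 0.0098 without DMSO replicate 1. An interval shared by several genes was counted once per gene. With cyclic loess offsets 0 H3K27ac intervals and 9 gene and mark pairs were called. The H3K4me1 calls went to 0 with library size alone, loess, DESeq2 and a mean count of at least 50. With 1 interval per locus, and likewise over non-overlapping intervals (chosen after seeing the data), which have fewer intervals by construction, there were 1 H3K27ac, 2 H3K27me3 and 1 H3K4me1 calls. The median of 1 interval per locus was 0.092 for H3K27ac and −0.060 for H3K4me3. The shortest interval per gene left 8 pairs called. Leaving out 1 library gave 0 to 3 H3K27ac calls, 4 to 8 H3K27me3 calls, 0 to 3 H3K4me1 calls, 9 to 14 called pairs and an H3K4me3 median of −0.082 to 0.025. The lone library of an arm is then assumed to vary like the others.

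The gene and interval values that changed sign did not pass the threshold under that setting, and ranges here are over leaving out each library. For H3K27ac, HOXA11 and HOXA13 ran from −0.048 to 0.0098, HOXA13 came to 0.10 with the shortest interval and 0.11 with the 1 kb window and with the main start only, the interval at chr7:27191214-27194094 ran from −0.0051 to 0.23, and that at chr7:27198243-27202525 from −0.0063 to 0.25. For H3K27me3, HOXA3 and HOXA5 came to 0.45 with the shortest interval, and that interval ran from −0.40 to 0.99. For H3K4me1, HOXA6 ran from −0.11 to 0.61 and HOXA3 from −0.13 to 0.13, and HOXA7 came to 0.26 with the shortest interval. For H3K4me3, the interval at chr7:27195784-27196834 came to 0.0077 with library size alone and ran from −0.14 to 0.14, and HOXA13 came to 0.022 with the main start only.

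The libraries of both arms share replicate numbers, and deviations of same-numbered libraries had r = −0.00886 (H3K27ac), −0.00687 (H3K27me3), 0.00682 (H3K4me1) and 0.167 (H3K4me3) across intervals, which are not independent, so the numbers were not taken as pairs. With the replicate block 4, 8, 2 and 0 intervals were called for H3K27ac, H3K27me3, H3K4me1 and H3K4me3, with medians of −0.02, −0.39, −0.25 and −0.01, and 15 pairs. Depth limits the value beside HOXA5, behind which stand 10 to 22 counts per library.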
